A study of Mus musculus with 9 samples.

Results

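The genes described here are 47 genes of DNA replication and S phase, measured in mouse embryonic fibroblasts (MEFs) of 3 genotypes with 3 arrays of each. They were chosen by name for their place in replication licensing, the replication fork, nucleotide supply and the E2F programme, and all 47 were measured among 19938 genes on Affymetrix Gene ST arrays, which read total RNA of a whole culture. The levels are log2 RMA values, on which a difference of 1 is a doubling. TM cells carry mutant alleles of ERO1α and ERO1β, the thiol oxidases of the endoplasmic reticulum (ER), and lack PRDX4, an ER peroxiredoxin. DM cells carry the ERO1α and ERO1β mutations with intact PRDX4. The labels call the third genotype, WT here, wild type on a C57B/L6 background, whereas the methods list as control a genotype with 1 mutant ERO1α allele and both ERO1β alleles mutant. According to the labels all 9 arrays are of cells transformed with T antigen, while the methods describe both primary MEFs and MEFs immortalized with SV40 large T antigen. Whether the replicates were separate embryos or cultures is not stated, and the p-values below therefore cover only array-to-array spread, part of which may be technical.

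Before S phase, the origin recognition complex, CDC6 and CDT1 load the ring of MCM proteins onto DNA, a step called licensing that geminin holds in check. The ring becomes an active helicase once CDC45 and the GINS complex bind it. Primase with polymerase α then starts each strand, and polymerases δ and ε extend it on the PCNA clamp, which the RFC complex loads. Most of these genes are transcribed from late G1 by E2F factors, which the RB family restrains and cyclin E with its kinase sets free, and large T antigen is known for binding RB family proteins.

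Among the mutated genes, Ero1a averaged 9.06 ± 0.076 in TM, 9.46 ± 0.052 in DM and 11.86 ± 0.020 in WT MEFs, and Prdx4 averaged 6.30 ± 0.41 in TM, 10.68 ± 0.22 in DM and 10.56 ± 0.11 in WT MEFs (SD, n = 3). Ero1b averaged 7.94 ± 0.081 in TM, 7.70 ± 0.023 in DM and 7.65 ± 0.11 in WT MEFs, and was thus not lower in either mutant, with a log2 fold change of 0.29 in TM (adjusted p = 0.00541 from limma) and 0.05 in DM (adjusted p = 0.581 from limma). Whether its probes lie in the part the mutation affects was not tested, and its level does not settle which ERO1β alleles the WT cells carry. Xist, the RNA of the inactive X, stood at 5.72 in TM, 12.56 in DM and 5.70 in WT MEFs, so that for DM against either other genotype the mutation and the sex of the cells cannot be told apart. Pola1 is the only X-linked gene among the 47. Vim, a mesenchymal marker, was between 14.13 and 14.20 on all 9 arrays, while the fibroblast marker Thy1 averaged 10.61 in TM, 7.42 in DM and 7.68 in WT MEFs, in DM and WT no higher than a typical probe set. Of the 11 fibroblast markers measured, 5 were higher and 3 lower in TM than in WT, and 4 were higher and 4 lower in DM, by adjusted p. Of all genes 13.8% were higher and 18.0% lower in TM, and 17.0% and 19.8% in DM. Pdgfra was at -0.21 in TM and -1.91 in DM on the log2 scale against WT and Col1a2 at 0.12 and -1.71, while Pdgfrb (1.23 in TM and 1.18 in DM) and Dcn (1.83 and 1.14) rose in both. On the linear scale the 11 summed to 56406 to 57295 on the TM arrays, 51122 to 51805 on the DM arrays and 45537 to 46669 on the WT arrays. The mean of their log2 values was 11.16 to 11.25 in TM, 10.43 to 10.45 in DM and 10.51 to 10.54 in WT. By the sum DM thus lay above WT, and by the mean below it. The 11 epithelial and mesothelial markers summed, on the linear scale, to 1922 to 2097 on the TM arrays, 8640 to 10203 on the DM arrays and 5376 to 5632 on the WT arrays, with none at 0. These markers did not move together: against WT, Upk3b was at -0.14 in TM and 5.07 in DM, Krt18 at -0.04 and 2.69, Msln at -3.61 and -1.43, and Krt19 at -1.81 and -0.40. The 6 neural markers summed to 1972 to 2064 on the TM arrays, 794 to 899 on the DM arrays and 1811 to 1916 on the WT arrays. Their part in the differences below was not tested. Markers of endothelium, leukocytes and skeletal muscle had no call over 1.5-fold. Against WT 5.59% of all genes were higher and 3.56% lower by that limit in TM, and 5.28% and 5.67% in DM. Array medians over all probe sets were 7.67 to 7.70 in TM, 7.70 to 7.72 in DM and 7.62 to 7.65 in WT. Every mutant array was thus above every WT array in this median.

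The replication genes were mostly well expressed. Averaged over the 9 arrays their levels ran between 7.77 for Gmnn and 13.14 for Pcna, with a median of 11.04, and 46 of the 47 lay above the median gene. In both mutants the balance of the group was towards lower mRNA by small amounts. The median log2 fold change over the 47 genes was -0.18 for TM against WT and -0.21 for DM against WT, beside -0.03 and 0.02 over all genes and -0.06 in both over the 10705 genes in the same range of levels. Below 0 were 36 of the 47 values in TM (76.6%) and 40 in DM (85.1%), against 58.3% and 44.2% of all genes and 60.0% and 56.8% of the genes in the same range of levels. Each culture was read as a whole, so fewer cells in S phase and less of these mRNAs per cell cannot be told apart. WT replicate 2 had higher values than the WT mean for 38 of the 47 genes, and without it the medians were -0.11 for TM and -0.16 for DM. By array, the median difference of the 47 genes from the WT mean was -0.13, -0.21 and -0.19 for TM, -0.18, -0.23 and -0.16 for DM, and -0.04, 0.04 and -0.03 for WT. All 6 mutant arrays lay below all 3 WT arrays in this median, though the WT arrays are held near 0 because their own mean is the reference.

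**Figure D1:**
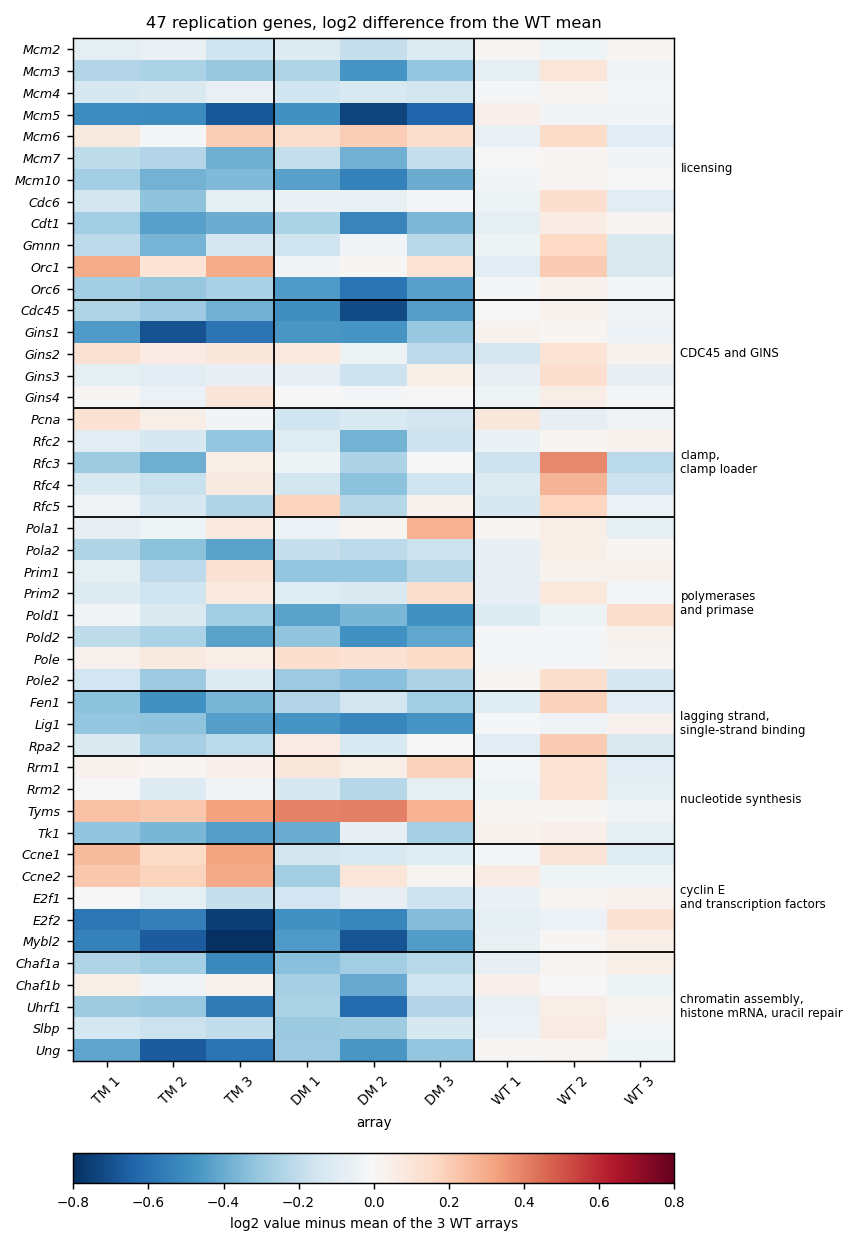
Log2 value minus the mean of the 3 WT arrays for each of the 47 genes (rows, by role) on each of the 9 arrays (columns), on a color scale between -0.8 and 0.8. Mcm5, Gins1, E2f2, Mybl2 and Ung are blue on all 6 TM and DM arrays, and Tyms is red on all 6.

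At 1.5-fold or more with an adjusted p below 0.05, few of the 47 genes passed. In TM against WT, E2f2 and Mybl2 fell, 2 of 47, where 3.56% of all genes were lower by this threshold, and 0 of 47 rose, where 5.59% of all genes were higher. In DM against WT, only Mcm5 fell, 1 of 47, where 5.67% of all genes were lower, and 0 rose, where 5.28% were higher. The counts of 0 in limma stayed 0 at an unadjusted p under 0.05 with the same fold limit. For changes of this size the 47 genes were thus close to or below the share of all genes. Gins1 lay just short of the limit in TM, 1.49-fold lower than in WT.

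By the adjusted p alone, with no fold limit, the counts were larger. In TM MEFs 19 of the 47 genes were lower than in WT (40.4%), where 18.0% of all genes were lower, and 2 were higher, where 13.8% were. In DM MEFs 23 were lower than in WT (48.9%), where 19.8% of all genes were, and 1 was higher, where 17.0% were. Among the genes in the same range of levels, 29.0% were lower in TM and 32.9% in DM. That match is loose, as the median level of the 47 was at percentile 89.0 of all genes. In a fit of only the genes above the median level, 19 of 46 members were lower in TM and 25 in DM. There 32.8% and 36.5% of all genes kept were lower. The medians of the 46 were -0.17 and -0.21, beside -0.07 in both over the genes kept. The counts of 19 and 23 lower over all genes moved with the scaling of the arrays. Median centring gave 24 lower and 2 higher in TM and 31 lower and 1 higher in DM. The share of all genes lower rose with it, to 23.6% in TM and 25.4% in DM, with 11.9% and 12.4% higher. Quantile normalization gave 19 lower and 4 higher in TM and 18 lower and 4 higher in DM. There 17.7% of all genes were lower in TM and 18.8% in DM, and 14.4% and 17.1% were higher. Cyclic loess gave 18 and 4 in TM and 17 and 4 in DM. With it 14.8% of all genes were lower in TM and 17.6% in DM, and 16.7% and 18.8% were higher. Both comparisons use the same 3 WT arrays and are not independent of each other. Lower in both were 17 genes, namely Mcm3, Mcm5, Mcm7, Mcm10, Cdt1, Orc6, Cdc45, Gins1, Pola2, Pold2, Lig1, Tk1, E2f2, Mybl2, Chaf1a, Uhrf1 and Ung. In neither comparison did 20 genes pass, among them Mcm2, Mcm6, Pcna, Rrm1, Rrm2 and E2f1. The shares of all genes lower in both or passing in neither were not computed, so these counts have no background beside them.

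**Figure D2:**
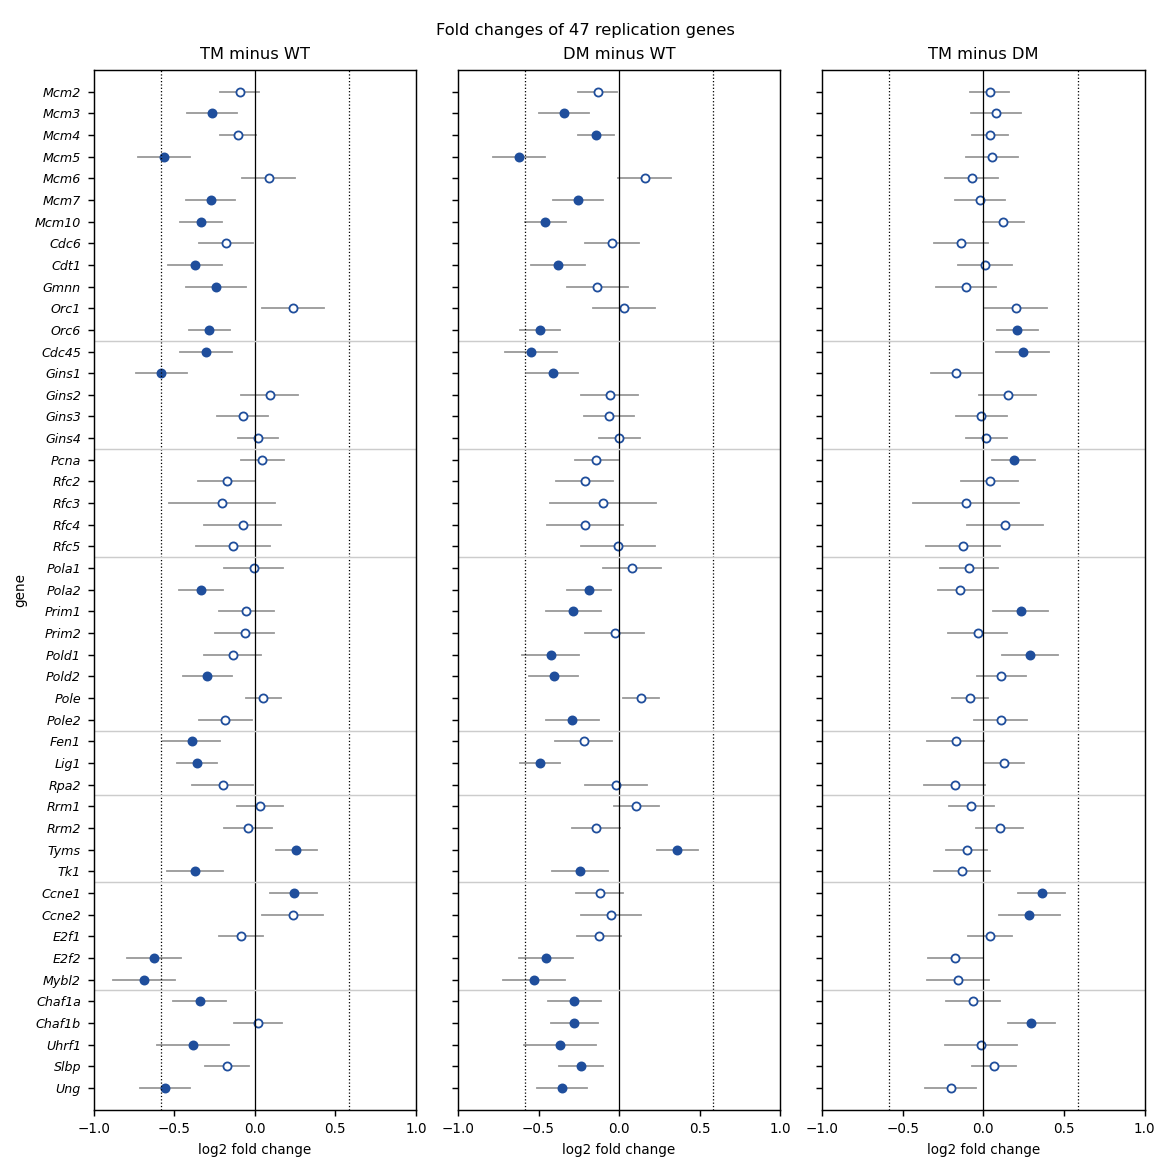
Log2 fold change of each of the 47 genes (rows) for TM minus WT, DM minus WT and TM minus DM, with the 95% confidence interval from limma as a bar. Filled points have an adjusted p under 0.05 and dotted lines mark 1.5-fold, which only E2f2 and Mybl2 pass in TM minus WT and only Mcm5 passes in DM minus WT.

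The transcription factors and E-type cyclins, which drive entry into S phase, did not move as a group. Of the 5, E2f2 and Mybl2 were lower in both mutants by adjusted p, Ccne1 was higher in TM, and E2f1 and Ccne2 passed in neither comparison with WT. The share lower was thus 40% in each mutant, where 18.0% of all genes were lower in TM and 19.8% in DM. E2f2 encodes an activating E2F. Its values were 7.94, 7.97 and 7.77 in TM, 8.04, 7.999 and 8.17 in DM, and 8.45, 8.47 and 8.65 in WT. The 3 genotypes did not overlap, with TM lowest and WT highest. The log2 fold change was -0.63 in TM against WT (SE 0.078, adjusted p = 4.1e-05 from limma), 1.54-fold lower, and -0.45 in DM against WT (adjusted p = 0.0005). Without TM replicate 3 or without WT replicate 3, the TM change of E2f2 was no longer over 1.5-fold.

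Mybl2 encodes B-MYB, which with the MuvB complex activates late cell cycle genes. It read 10.34, 10.21 and 10.02 in TM, 10.43, 10.19 and 10.43 in DM, and 10.82, 10.89 and 10.92 in WT MEFs. All 6 mutant arrays were below all WT arrays, while TM and DM overlapped. The change against WT was -0.69 in TM (SE 0.088, adjusted p = 5.76e-05), the largest fall among the 47, and -0.53 in DM (adjusted p = 0.000409). E2f1, the other activating E2F of the group, averaged 10.86 ± 0.094 in TM, 10.82 ± 0.053 in DM and 10.94 ± 0.045 in WT MEFs (SD, n = 3), with adjusted p = 0.364 in TM and 0.145 in DM from limma. Ccne1, which encodes cyclin E1, stood the other way in TM. Its arrays read 11.48, 11.39 and 11.55 in TM, 11.08, 11.11 and 11.13 in DM, and 11.22, 11.33 and 11.13 in WT. TM lay above both other genotypes, which overlapped. Ccne1 was higher in TM than in WT by 0.24 (SE 0.066, adjusted p = 0.0138), a call lost without TM replicate 3 or WT replicate 3 and under the alternative per-gene test with adjustment.

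**Figure D3:**
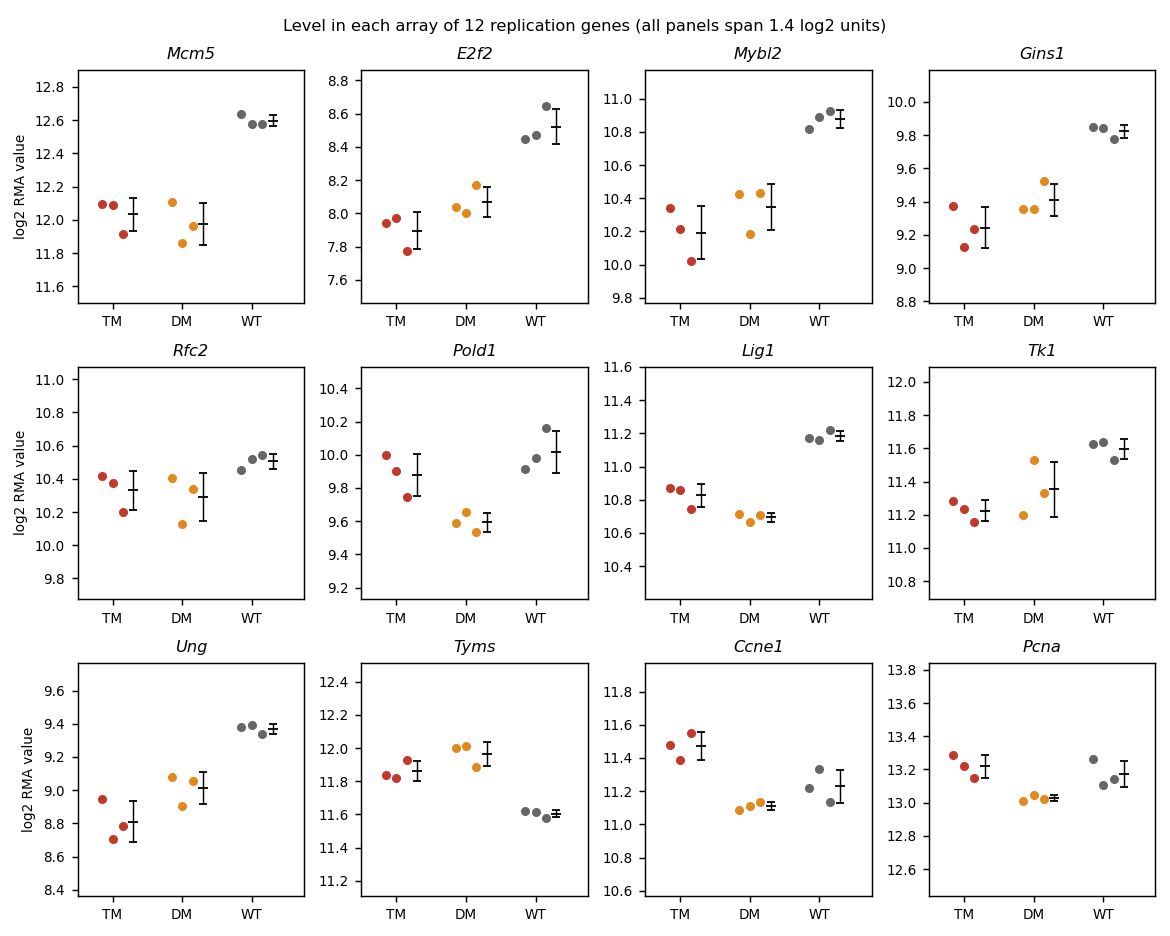
Log2 RMA values of 12 replication genes on each TM, DM and WT array (points), with the mean and SD of each genotype (bars, n = 3); all panels span 1.4 log2 units. Mcm5, E2f2, Mybl2, Gins1, Lig1 and Ung are lower on every TM and DM array than on every WT array, Tyms is higher, and Ccne1 is higher on every TM array than on every other array.

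Of the 12 licensing genes, the largest role group, 7 were lower in each mutant by adjusted p (58.3%) and 0 higher, and the group medians were -0.25 for TM and -0.20 for DM. Among all genes 18.0% were lower in TM and 19.8% in DM, and among those in the same range of levels 29.0% and 32.9%. Mcm5, a subunit of the MCM ring, read 12.09, 12.09 and 11.92 in TM, 12.11, 11.86 and 11.96 in DM, and 12.64, 12.58 and 12.58 in WT. Every mutant array was below every WT array, and TM and DM overlapped. The fall against WT was -0.56 in TM (SE 0.074, adjusted p = 6.84e-05) and -0.62 in DM (SE 0.074, adjusted p = 2.61e-05), 1.54-fold lower in DM. That change was not over 1.5-fold with quantile normalization, cyclic loess or array weights, or without DM replicate 2, while the adjusted p stayed under 0.05. The other ring subunits ranged widely about this. Mcm3 and Mcm7 were lower, at -0.26 and -0.27 in TM and -0.34 and -0.25 in DM, and Mcm2 passed in neither (-0.09 in TM, -0.13 in DM). Mcm6 leaned the other way, at 0.09 in TM (95% interval -0.08 to 0.25) and 0.16 in DM (-0.0048 to 0.32), without passing. Mcm4 passed in DM (-0.14, adjusted p = 0.047) and not in TM (-0.10, adjusted p = 0.17), with a difference between the mutants of 0.04 (adjusted p = 0.579).

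Of the loading factors, Cdt1 fell in both mutants, with a log2 fold change of -0.37 in TM and -0.38 in DM, and so did Orc6, a subunit of the origin recognition complex, at -0.28 in TM and -0.49 in DM. Mcm10, which acts as the helicase fires, changed by -0.33 in TM and -0.46 in DM. Orc1 and Cdc6 passed in neither. Orc1 was at 0.24 in TM (adjusted p = 0.061) and 0.03 in DM, and Cdc6 at -0.18 and -0.04. Gmnn, which encodes the CDT1 inhibitor geminin, passed in TM on the edge of the threshold (-0.24, adjusted p = 0.0498) and not in DM (-0.13), and the mutants differed by -0.11 (adjusted p = 0.374).

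Promoter windows from RefSeq (GRCm38.p6), each covering 250 bases before and 50 after a transcript start, were found for 38 of the 47 genes, in 45 windows. They were searched on both strands for exact matches to 4 forms of the E2F site (TTTCCCGC, TTTGGCGC, TTTCGCGC and TTTGCCGC), which can overlap each other. A match stood in 15 of the 38 genes (39.5%), against 2.60% of the 27025 genes in the RefSeq table. The 47 genes were chosen partly for the E2F programme, so the higher share follows in part from that choice. The 27025 genes were not matched to them for level or base content. The 15 genes were Cdc6, Cdt1, E2f2, Gins3, Lig1, Mcm3, Mcm5, Mcm6, Mcm7, Orc1, Pola1, Pold1, Pole2, Rfc3 and Uhrf1. Of the 15 genes with a match 7 were lower in TM and 9 in DM, and of the 23 without one 10 were lower in TM and 12 in DM. The medians were -0.20 and -0.29 with a match and -0.17 and -0.22 without. No test was made of this split, and genes without an exact match may still carry an E2F site of another form. The 4 windows below set the 3 genes past 1.5-fold beside Mcm6, which was not lower, with E2F matches in capitals and each read 5′ to 3′ towards the gene.
Mcm5: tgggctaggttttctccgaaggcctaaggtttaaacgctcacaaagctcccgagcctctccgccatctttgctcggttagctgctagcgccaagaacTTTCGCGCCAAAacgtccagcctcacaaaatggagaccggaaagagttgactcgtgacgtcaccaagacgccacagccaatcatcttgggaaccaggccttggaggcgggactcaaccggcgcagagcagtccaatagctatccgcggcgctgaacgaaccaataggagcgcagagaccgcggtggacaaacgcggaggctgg
E2f2: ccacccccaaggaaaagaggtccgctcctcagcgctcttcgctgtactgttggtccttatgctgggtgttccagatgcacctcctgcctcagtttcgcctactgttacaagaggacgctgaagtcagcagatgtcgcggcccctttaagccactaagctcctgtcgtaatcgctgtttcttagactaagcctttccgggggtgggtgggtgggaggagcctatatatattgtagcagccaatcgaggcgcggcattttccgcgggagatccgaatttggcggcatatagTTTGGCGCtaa
Mybl2: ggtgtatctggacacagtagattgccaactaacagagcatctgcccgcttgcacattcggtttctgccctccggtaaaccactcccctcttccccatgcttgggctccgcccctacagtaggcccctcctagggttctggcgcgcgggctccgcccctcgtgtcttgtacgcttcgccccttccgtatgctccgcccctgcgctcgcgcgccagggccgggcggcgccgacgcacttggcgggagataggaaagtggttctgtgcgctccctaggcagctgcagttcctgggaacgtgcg
Mcm6: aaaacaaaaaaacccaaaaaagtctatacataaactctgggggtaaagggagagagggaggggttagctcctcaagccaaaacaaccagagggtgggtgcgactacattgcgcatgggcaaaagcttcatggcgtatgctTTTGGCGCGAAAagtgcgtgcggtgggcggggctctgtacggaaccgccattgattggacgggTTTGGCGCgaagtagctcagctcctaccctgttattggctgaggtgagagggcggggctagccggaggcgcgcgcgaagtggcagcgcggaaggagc
The Mcm5 window (chr8:75109259-75109558, plus strand) has overlapping matches that begin 153 and 149 bases before the start. In E2f2 (chr4:136172024-136172323, plus strand) a match begins 39 bases after it, in the transcribed part. Mybl2 (chr2:163054385-163054684, plus strand), the gene with the largest fall in TM, has none of the 4 forms in this window. The search took exact matches only, so an E2F site of another form there would be missed. Mcm6 (chr1:128359656-128359955, minus strand) has matches that begin 110, 106 and 47 bases before the start. Other short motifs were common among all genes of the table. The CCAAT box (CCAAT) stood in 57.9% of the 38 genes and 41.1% of all, the GC box (GGGCGG) in 78.9% and 38.2%, and the cell cycle element CHR (TTTGAA) in 15.8% and 20.2%.

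Among the genes of CDC45 and the GINS complex, which complete the helicase, 2 of 5 fell in each mutant (40%). By the same adjusted p, 18.0% of all genes were lower in TM and 19.8% in DM, and 29.0% and 32.9% of those in the same range of levels. Gins1 was lower on every mutant array, at 9.37, 9.12 and 9.23 in TM and 9.36, 9.35 and 9.52 in DM, against 9.85, 9.84 and 9.78 in WT. Its change was -0.58 in TM (SE 0.073, adjusted p = 4.83e-05) and -0.41 in DM (adjusted p = 0.00065). Cdc45 was lower in both mutants and lowest in DM. The arrays gave 10.50, 10.45 and 10.35 in TM, 10.25, 10.02 and 10.30 in DM, and 10.74, 10.77 and 10.71 in WT, with no overlap between any 2 genotypes. Its log2 fold change was -0.30 in TM (adjusted p = 0.00713) and -0.55 in DM (adjusted p = 7.8e-05). The 3 other GINS genes, Gins2, Gins3 and Gins4, whose products form a single complex with GINS1, passed in neither mutant, with values of -0.08 to 0.09 in TM and -0.06 to 0.00 in DM.

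The clamp and clamp loader genes had no call against WT in either mutant by adjusted p. For all genes the shares lower were 18.0% in TM and 19.8% in DM, and those higher 13.8% and 17.0%. Pcna, the brightest of the 47, averaged 13.22 ± 0.069 in TM, 13.03 ± 0.018 in DM and 13.17 ± 0.080 in WT MEFs (SD, n = 3). Among the loader subunits, Rfc2 had the largest difference of DM from WT in this group, at 10.42, 10.38 and 10.20 in TM and 10.41, 10.13 and 10.34 in DM, against 10.45, 10.52 and 10.54 in WT. The arrays of each mutant were below those of WT by little, and the changes of -0.18 in TM and -0.21 in DM did not pass (adjusted p = 0.131 and 0.0569 from limma). Rfc3, Rfc4 and Rfc5 had the largest standard errors of the 47, and WT replicate 2 was the highest WT array in all 3. Rfc3 read 10.76, 11.31 and 10.71 in WT, so that its change of -0.20 in TM had a 95% interval of -0.53 to 0.12.

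Of the 8 polymerase and primase genes, 2 were lower in TM (25.0%) and 5 in DM (62.5%), and 0 were higher in either, beside the 18.0% and 19.8% of all genes that were lower. The TM share is below the 29.0% of genes in the same range of levels. Pold1, the catalytic subunit of polymerase δ, fell in DM. It read 10.00, 9.90 and 9.75 in TM, 9.59, 9.65 and 9.54 in DM, and 9.92, 9.98 and 10.16 in WT. TM overlapped WT and DM lay below both. The change was -0.14 in TM (adjusted p = 0.24) and -0.43 in DM (SE 0.080, adjusted p = 0.00103). Pold2, the second subunit of the enzyme, fell in both, with changes of -0.29 in TM and -0.41 in DM, as did Pola2 of the polymerase α complex (-0.33 and -0.19). Prim1 and Pole2 were lower in DM (-0.28 and -0.29) and did not pass in TM (-0.05 and -0.18). The catalytic subunits Pola1 and Pole, and Prim2, passed in neither. Pole was at 0.05 in TM and 0.13 in DM (adjusted p = 0.0556), and X-linked Pola1 at -0.01 and 0.08.

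Lagging strand synthesis leaves fragments that the nuclease FEN1 trims and DNA ligase 1 joins. Lig1 fell in both mutants, with 10.87, 10.86 and 10.74 in TM and 10.71, 10.66 and 10.71 in DM, against 11.17, 11.16 and 11.22 in WT. No genotype overlapped another. The change was -0.36 in TM (SE 0.057, adjusted p = 0.00032) and -0.49 in DM (adjusted p = 1.97e-05). Fen1 was lower in TM (-0.39, adjusted p = 0.00235) and just missed the threshold in DM (-0.22, adjusted p = 0.0507). Rpa2, a subunit of the single-strand binding complex RPA, passed in neither (-0.20 and -0.02).

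Nucleotide synthesis held the only gene that rose in both mutants. Tyms encodes thymidylate synthase, which makes the thymine nucleotide from dUMP. Its levels were 11.84, 11.82 and 11.93 in TM, 12.00, 12.01 and 11.88 in DM, and 11.62, 11.61 and 11.58 in WT. Every mutant array was above every WT array. The change was 0.26 in TM (SE 0.059, adjusted p = 0.0044) and 0.36 in DM (adjusted p = 0.000336), and it stayed past the adjusted p threshold under every alternative tried. Tk1, thymidine kinase 1, which makes the same nucleotide from salvaged thymidine, went the opposite way. It read 11.28, 11.23 and 11.16 in TM, 11.20, 11.53 and 11.33 in DM, and 11.63, 11.64 and 11.53 in WT. TM lay below WT, whereas the highest DM array reached the lowest WT array. The fall was -0.37 in TM (SE 0.080, adjusted p = 0.00286) and -0.24 in DM (adjusted p = 0.0306), where the call was lost with quantile normalization or cyclic loess, under the alternative per-gene test and without WT replicate 2. Rrm1 and Rrm2, the subunits of ribonucleotide reductase, did not pass in either mutant, at 0.03 and -0.04 in TM and 0.11 and -0.14 in DM.

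The last group acts behind the fork, in chromatin assembly, maintenance of DNA methylation, histone mRNA processing and removal of uracil. Of its 5 genes, 3 were lower in TM (60%) and 5 in DM (100%), where 18.0% and 19.8% of all genes were. In the same range of levels the shares were 29.0% and 32.9%. Ung, the uracil DNA glycosylase, had 8.94, 8.70 and 8.79 in TM, 9.08, 8.90 and 9.06 in DM, and 9.38, 9.39 and 9.34 in WT. The mutants lay below WT and overlapped each other. Its change was -0.56 in TM (SE 0.072, adjusted p = 6.16e-05) and -0.35 in DM (adjusted p = 0.00184). Chaf1a and Chaf1b encode the large subunits of chromatin assembly factor 1. Chaf1a fell in both (-0.34 in TM and -0.28 in DM), whereas Chaf1b was at 0.02 in TM (adjusted p = 0.873) and -0.28 in DM (adjusted p = 0.00571). Uhrf1, which brings the maintenance methyltransferase to replicated DNA, fell in both as well (-0.38 and -0.37). Slbp, which binds the stem-loop of histone mRNAs, was lower in DM (-0.24) and missed the threshold in TM (-0.17, adjusted p = 0.0561).

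The direct comparison of TM with DM found smaller differences. These genotypes differ in PRDX4 and, by Xist, in the sex of the cells, which cannot be told apart here. With the 1.5-fold limit 0 of the 47 genes were higher, where 4.68% of all genes were, and 0 were lower, where 3.61% were, in limma with or without adjustment of p. By adjusted p alone 8 were higher, 17.0% of the 47, where 15.4% of all genes were higher, and 0 were lower, where 16.5% were. Of the genes in the same range of levels, 23.4% were higher and 22.1% lower. The counts of 8 and 0 depended on the fit. In a fit of only the 6 arrays compared, 5 were higher and 0 lower. Under the alternative per-gene test with adjustment 1 was higher and 1 lower, and with quantile normalization 7 were higher and 2 lower. The shares of all genes were 13.7% higher and 13.6% lower in the fit of 6 arrays. They were 9.28% and 8.99% under the per-gene test, and 15.4% and 16.7% with quantile normalization. The median log2 fold change was 0.02, beside -0.05 over all genes, and it turned to -0.04 without DM replicate 2, to -0.0045 without TM replicate 1, to -0.02 with quantile normalization and to -0.01 with cyclic loess.

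Ccne1 had the largest difference, higher in TM than in DM by 0.36 (SE 0.066, adjusted p = 0.00105). Chaf1b, for chromatin assembly factor 1, read 11.54, 11.46 and 11.53 in TM against 11.22, 11.08 and 11.33 in DM, a difference of 0.30 (SE 0.067, adjusted p = 0.00448), and 11.53, 11.49 and 11.45 in WT. DM was the low genotype there. Orc6 was at 11.05, 11.03 and 11.07 in TM, 10.88, 10.74 and 10.89 in DM, and 11.31, 11.36 and 11.31 in WT, so that TM lay between DM and WT, 0.21 above DM (adjusted p = 0.0151). The other 5 that were higher in TM than in DM were Pold1 (0.29, adjusted p = 0.0157), Ccne2 (0.29, adjusted p = 0.024), Cdc45 (0.24, adjusted p = 0.0255), Pcna (0.19, adjusted p = 0.0326) and Prim1 (0.23, adjusted p = 0.0391). The calls of Pold1, Ccne2, Cdc45, Pcna and Prim1 were lost when TM replicate 1 was left out, which left 3 of the 8. Of the genes that fell against WT by more in TM than in DM, E2f2 differed between the mutants by -0.17 (95% interval -0.34 to -0.0047, adjusted p = 0.11), Gins1 by -0.17 (-0.33 to -0.01, adjusted p = 0.103) and Ung by -0.20 (-0.36 to -0.04, adjusted p = 0.0507). None of these passed.

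The same counts were made for genes of the pathway outside the 47. Beside them, 18.0% of all genes were lower in TM and 19.8% in DM by adjusted p, and 13.8% and 17.0% were higher. Of the genes in the range of levels of the 47, 29.0% and 32.9% were lower, and 18.4% and 21.9% higher. Of 49 other replication genes 47 were measured. By adjusted p 16 were lower (34.0%) and 2 higher in TM than in WT, and 20 lower (42.6%) and 0 higher in DM. The medians of these 47 were -0.09 and -0.16. Dut, the dUTPase that keeps uracil out of DNA and makes dUMP for TYMS, was the only one past 1.5-fold, at -0.64 in TM (SE 0.085, adjusted p = 6.91e-05) and -0.32 in DM (adjusted p = 0.00992). Its arrays read 10.00, 9.89 and 10.17 in TM, 10.36, 10.41 and 10.26 in DM, and 10.65, 10.80 and 10.54 in WT. Of 30 genes named as histones of the H1, H2A, H2B, H3 and H4 families, 13 were lower (43.3%) and 1 higher in TM. In DM 22 were lower (73.3%) and 0 higher, and the medians were -0.20 for TM and -0.32 for DM. The near-identical copies of histone genes can share probes, which leaves the single genes uncertain.

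Genes of G2 and mitosis, which act after replication, are a measure of proliferation that the 47 do not include. Of 39 measured, 19 were lower and 1 higher in TM, and 17 lower and 3 higher in DM, with medians of -0.17 and -0.12. As shares of the 39, 48.7% and 43.6% were lower, where 18.0% and 19.8% of all genes were. Higher were 2.56% and 7.69%, where 13.8% and 17.0% of all genes were. In the range of levels of the 47 replication genes, 29.0% and 32.9% of genes were lower and 18.4% and 21.9% higher. Cdc25b, a phosphatase that starts mitosis, was at -0.67 in TM and -0.62 in DM, and Aurka, a spindle pole kinase, at -0.61 and -0.49. Fbxo5, an inhibitor of the anaphase-promoting complex, and Ndc80, a kinetochore protein, were at 0.01 and -0.11 in TM and fell in DM, with changes of -0.69 and -0.60. Both were higher in TM than in DM, by 0.69 for Fbxo5 (adjusted p = 7.54e-05) and 0.50 for Ndc80 (adjusted p = 0.000416). Over the whole list, 4 genes were higher (10.3%) and 5 lower (12.8%) in TM than in DM by adjusted p. Both shares were below those of all genes, 15.4% and 16.5%. The largest difference went the other way, in Pttg1, which encodes securin, at -0.87 (adjusted p = 1.91e-06), and Cdc25c (-0.48), Bub1b (-0.39) and Cenpa (-0.37) were also lower in TM. Mki67 and Top2a, proliferation markers picked out here after their values were seen, did not pass in either mutant. Mki67 averaged 12.36 in TM, 12.41 in DM and 12.27 in WT, and Top2a averaged 12.05 in TM, 12.08 in DM and 12.07 in WT.

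**Figure D4:**
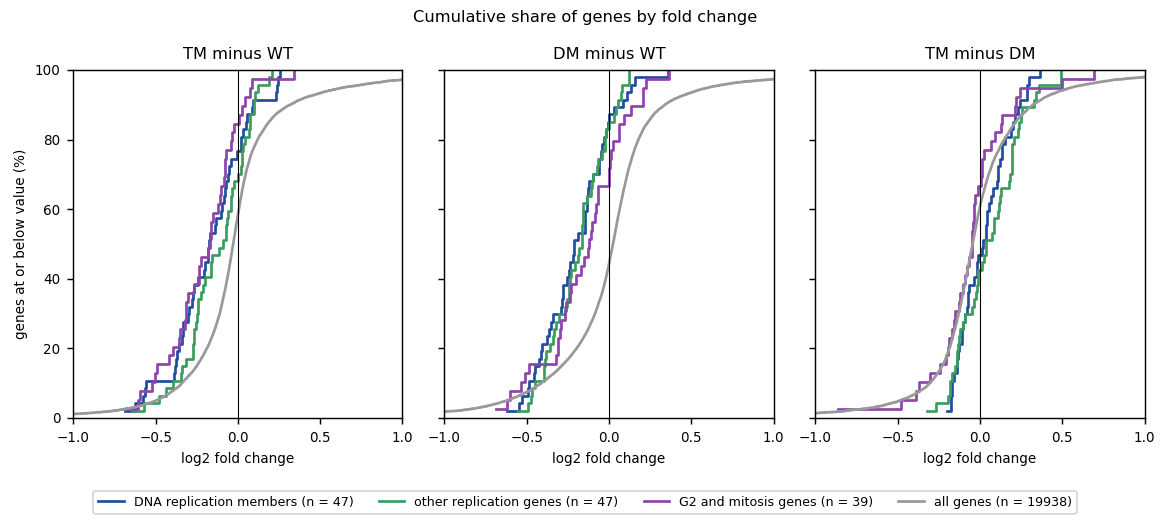
Cumulative share of genes (percent) at or below each log2 fold change, for the 47 replication genes, 47 other replication genes, 39 G2 and mitosis genes and all 19938 genes, in TM minus WT, DM minus WT and TM minus DM. In both comparisons with WT the curves of the 3 lists lie left of that of all genes over most of the range, and the median of the 47 genes is -0.18 in TM and -0.21 in DM.

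Among the 20 regulators of RB and E2F, which control when the replication genes are transcribed, 9 were lower (45%) and 3 higher (15%) in TM, and 8 lower (40%) and 3 higher (15%) in DM. The shares of all genes were 18.0% lower and 13.8% higher in TM and 19.8% lower and 17.0% higher in DM, so that the 3 higher are near the background. Ccnd1, cyclin D1, which with its kinases inactivates RB, fell most. It read 11.68, 11.62 and 11.67 in TM, 11.24, 11.44 and 11.20 in DM, and 12.49, 12.43 and 12.50 in WT, with changes of -0.81 in TM (SE 0.067, adjusted p = 9.79e-07) and -1.18 in DM (adjusted p = 2.49e-08). Rb1, the restraint on E2F, was higher in both, by 0.98 in TM (adjusted p = 3.68e-07) and 0.51 in DM (adjusted p = 0.000114). E2f4, a largely repressive E2F, fell in both, with changes of -0.77 in TM and -0.81 in DM. Cdk6, a kinase partner of D cyclins, was lower in TM, at -0.71 in TM and 0.09 in DM, and TM differed from DM by -0.80 (adjusted p = 2.64e-07). Whether these regulators bear on the replication genes was not tested.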

How the data were processed

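RNA of MEFs of 3 genotypes was hybridised in triplicate to Affymetrix Gene ST arrays. The authors deposited log2 values for each probe set, computed with RMA, which corrects background, normalizes arrays to each other and summarises probes. Shifts in total signal between arrays are thereby reduced, though the array medians still stood higher in both mutants than in WT. No genome build is named. PLIER values and array scans were not analysed here. Of 35556 probe sets, 21789 have 1 annotated symbol, 1621 several and 12146 are not listed, and the brightest single-symbol probe set of each gene was kept (3 of the 47 genes have several). All 9 arrays were fitted with limma 3.58.1 in R 4.3.3 (lmFit, eBayes), and p-values were adjusted by Benjamini-Hochberg over 19938 genes. The methods' 1.5-fold limit was applied, and counts with no fold limit are given beside it. The fit was tested on simulated data. Arrays correlated at r = 0.994 to 0.997 within a genotype. Their number limits the precision. Same-numbered arrays did not deviate together (r = -0.24 to 0.17, above 0.1 in 1 of 9 pairs). The members, gene lists and tests were chosen with earlier results of these data known. Full values are given for genes past both adjusted p and 1.5-fold in any comparison, for the gene with the largest change of each role group, and for others of note chosen after their values were seen (Tyms, Ccne1, Chaf1b, Orc6 and Cdc45). Of other lists up to 4 such genes are named by rule, and Mki67, Top2a, Pttg1, Cdc25c, Bub1b, Cenpa and the markers after their values were seen. Motif searches and tables used Python 3.11.15. Alternatives covered thresholds, a Student t-test for each gene as the per-gene test, fits, scalings, filters, variance models, probe set choice and each array left out.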

Additional observations from a re-analysis of the deposited data

How the results depend on the processing

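With no fold limit, genes lower in TM than in WT numbered 19 in place of 2 and those higher 2, while in DM 23 were lower and 1 higher and 8 were higher in TM than in DM. With no fold limit 18.0% of all genes were lower in TM and 19.8% in DM, and 15.4% were higher in TM than in DM. At 1.2-fold, 18 were lower in TM, 18 lower and 1 higher in DM, and 4 higher in TM than in DM. The shares of all genes at 1.2-fold were not computed, nor those at 1.5-fold under the alternatives that follow. Those counts therefore have no background beside them. Median centring gave 5 lower in TM (Gins1, Mcm5 and Ung besides E2f2 and Mybl2) and 3 in DM, with medians of -0.23 and -0.28. Quantile normalization gave 0 lower in DM and medians of -0.13 and -0.15. Cyclic loess gave 0 lower in DM and medians of -0.11 and -0.13. Array weights gave 0 lower in DM. Mcm5 in DM thus kept its call only where its fall of 1.54-fold stayed over the limit, and its adjusted p stayed under 0.05 in each of these fits. Leaving out 1 array gave 1 (without TM replicate 3) to 5 (without TM replicate 1) genes lower in TM, 0 (without DM replicate 2) to 2 (without DM replicate 3) in DM, and medians of -0.20 to -0.11 for TM, -0.23 to -0.16 for DM and -0.043 (without DM replicate 2; without TM replicate 1 it was -0.0045) to 0.042 for TM against DM. By adjusted p alone, leaving out 1 array gave 17 to 20 lower in TM, 19 to 24 in DM and 3 to 8 higher in TM than in DM. The shares of all genes were then 14.5% to 18.5%, 16.8% to 19.8% and 12.6% to 16.0%. The replicate block, on numbers that did not pair the arrays, left the calls over 1.5-fold at 2 lower in TM, 1 in DM and 0 between the mutants, and by adjusted p alone gave 18, 21 and, for TM above DM, 8. By adjusted p alone the shares of all genes in that fit were 17.0%, 18.9% and 14.7%.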
